A study of Mus musculus with 5 samples.

Results

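Cebpa, Cebpb, Cebpd, Cebpe, Cebpg, Cebpz and Gfi1 are 7 of the 21887 protein-coding genes on the assembled mouse chromosomes, chosen by name as the C/EBP family symbols plus Gfi1. For each gene, H3K27ac peaks were sought at its ends, in its body and within 100 kb. The peaks came from mouse bone marrow cells sorted for CD45.2, Sca1 and Kit and against lineage markers, called HSC/MPP in the labels, which stands for haematopoietic stem cells and multipotent progenitors. Per the labels, the genes Mll3 and Mll4 were deleted in all libraries, input included. There were 4 H3K27ac libraries and 1 input library, made by ChIPmentation, in which the Tn5 transposase adds adapters to the immunoprecipitated chromatin. The labels give neither the age of the mice nor the driver of the deletion. The 4 libraries were deposited as 1 list of 22948 peaks, with no value of a single library and no read total. No replicate error, test or comparison of genotypes was therefore possible, and every count describes this list. A peak in part of the pooled cells and a weaker signal in all of them cannot be told apart.

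H3K27ac is the acetylation of lysine 27 of histone H3, found at active promoters and enhancers. C/EBP proteins bind DNA as dimers through a basic leucine zipper. C/EBP alpha, the product of Cebpa, is required for the step from multipotent cells to granulocyte and monocyte progenitors, and the product of Cebpb acts in the increased granulocyte production during infection. Those of Cebpd and Cebpe act in maturing myeloid cells, C/EBP epsilon in the late steps of granulocyte maturation. Cebpg encodes a short family member without an activation domain of its own, which acts as a dimer partner. Cebpz shares the symbol but encodes a CCAAT-binding factor without the leucine zipper that is found in the nucleolus. Gfi1 encodes a zinc finger repressor that recruits the histone demethylase LSD1, restrains stem cell division and favours the granulocyte over the monocyte fate.

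A peak lay at an end in 3 of the 7 genes, namely Cebpg, Cebpz and Gfi1. An end counted when any part of a peak came within 1 kb of it in either direction, and 36.2% of all protein-coding genes met this rule. None of the 4 genes Cebpa, Cebpb, Cebpd and Cebpe had a peak at an end or in the body. The absence of a called peak does not show that the mark was absent. The nearest peak edge lay 7.64 kb from Cebpb, 22.1 kb from Cebpe, 23.3 kb from Cebpd and 62.7 kb from Cebpa. The same 3 genes had a peak in the body, against 41.3% of all protein-coding genes. These were the same peaks as those at the ends, so the body count is not a separate result. Gene length differed: the 4 genes without a peak were 1518 to 2636 bp long and the other 3 were 9151 to 18068 bp long. Among genes within 2 times the length of each gene, the share with a peak in the body was 12.0% for the length of Cebpb, 14.2% for Cebpe, 24.8% for Cebpd and 26.3% for Cebpa. It was 38.4% for the length of Gfi1, 39.7% for Cebpg and 45.5% for Cebpz.

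**Figure D1:**
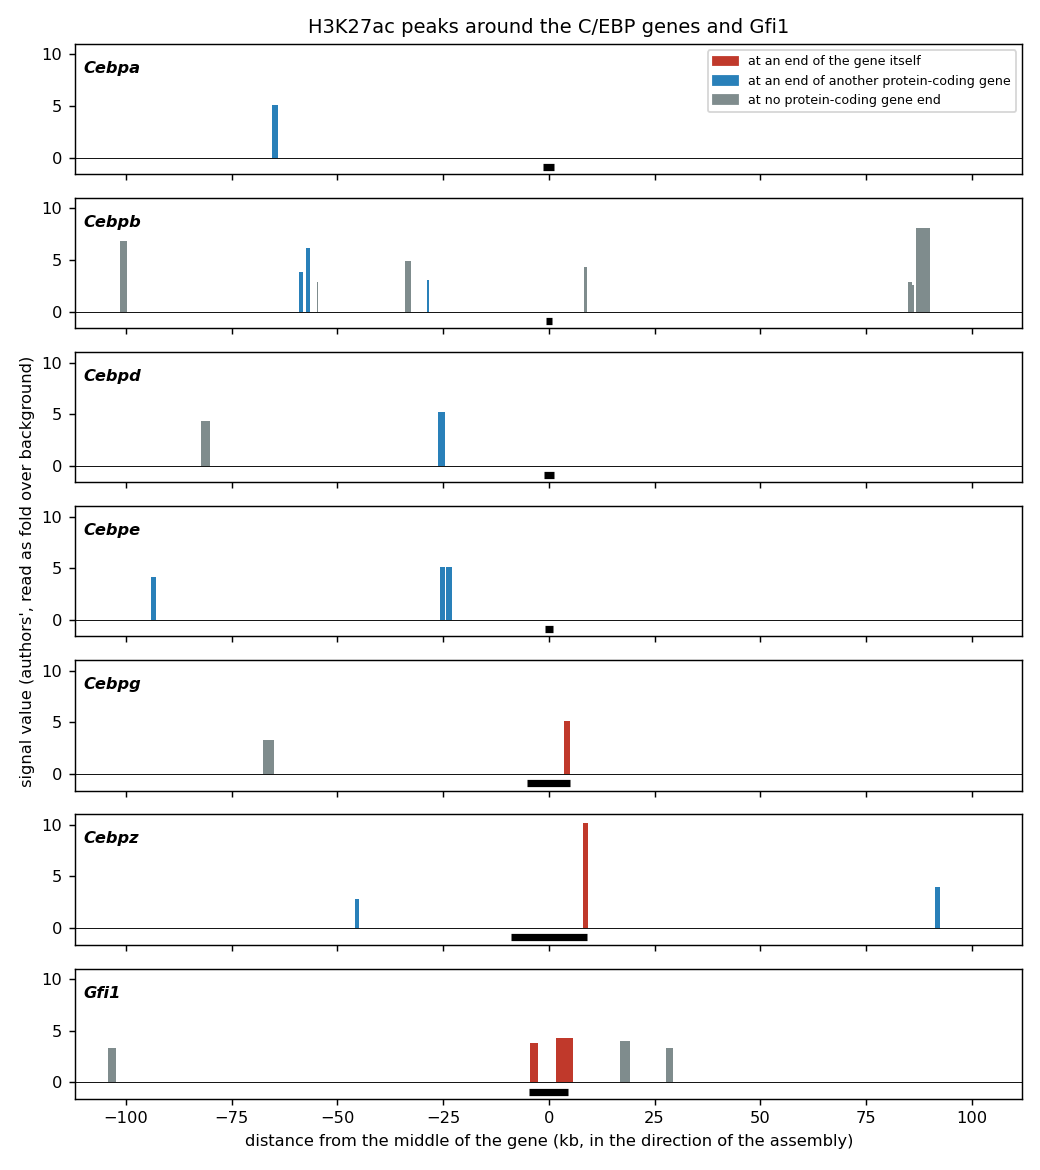
H3K27ac peaks around the 7 genes, drawn to scale. The horizontal axis is the distance from the middle of each gene in kb, bar height is the authors' signal value (read as fold over background, which the labels do not state), bar width is the peak, and the black bar below is the gene; colours mark peaks at an end of the gene itself, at an end of another protein-coding gene, or at neither. Only Cebpg, Cebpz and Gfi1 have a peak at an end, those of Cebpg and Cebpz shared with the end of a neighbour, and Cebpb has 10 distal peaks.

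The promoter sequences are shown for the genes whose start was under a peak, Cebpg and Gfi1. Those of 2 genes whose start was not, Cebpa and Cebpb, are shown beside them. The reason is that windows with many CpG were overlapped by a peak more often than those with few. The sequences are RefSeq sequences of GRCm38.p6 from 250 bases before to 50 after the start, written 5′ to 3′ along the gene. Capitals mark CpG dinucleotides. The table used held windows for 4 of the 7 genes and no entry for Cebpd, Cebpe and Cebpz. The windows are chr7:35056517-35056816 on the minus strand for Cebpg, chr5:107725756-107726055 on the minus strand for the outer start of Gfi1, chr7:35119043-35119342 on the plus strand for Cebpa and chr2:167688665-167688964 on the plus strand for Cebpb.
Cebpg: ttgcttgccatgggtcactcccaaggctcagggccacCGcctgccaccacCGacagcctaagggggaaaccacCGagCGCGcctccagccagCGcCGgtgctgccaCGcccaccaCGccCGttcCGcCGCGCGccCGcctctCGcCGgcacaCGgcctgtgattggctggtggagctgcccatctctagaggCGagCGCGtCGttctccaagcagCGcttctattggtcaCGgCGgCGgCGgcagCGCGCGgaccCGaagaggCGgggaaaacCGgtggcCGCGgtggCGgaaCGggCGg
Gfi1: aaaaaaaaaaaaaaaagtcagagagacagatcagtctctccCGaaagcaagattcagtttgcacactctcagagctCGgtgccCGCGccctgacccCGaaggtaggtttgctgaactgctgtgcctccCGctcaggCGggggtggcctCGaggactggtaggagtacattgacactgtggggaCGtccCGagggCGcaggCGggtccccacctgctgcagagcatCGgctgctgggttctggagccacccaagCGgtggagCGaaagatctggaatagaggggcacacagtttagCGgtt
Cebpa: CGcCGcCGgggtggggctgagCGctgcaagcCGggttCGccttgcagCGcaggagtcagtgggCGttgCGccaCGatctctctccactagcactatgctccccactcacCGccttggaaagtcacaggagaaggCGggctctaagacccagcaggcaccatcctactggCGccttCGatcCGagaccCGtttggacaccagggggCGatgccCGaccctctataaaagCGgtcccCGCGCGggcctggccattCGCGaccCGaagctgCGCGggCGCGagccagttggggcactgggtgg
Cebpb: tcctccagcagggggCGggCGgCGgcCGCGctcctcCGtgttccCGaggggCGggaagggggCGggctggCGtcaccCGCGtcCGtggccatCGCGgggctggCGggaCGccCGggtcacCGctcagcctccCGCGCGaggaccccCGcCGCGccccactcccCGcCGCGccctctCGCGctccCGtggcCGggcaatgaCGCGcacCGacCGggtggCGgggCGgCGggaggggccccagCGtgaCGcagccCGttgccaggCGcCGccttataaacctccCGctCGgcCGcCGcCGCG

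The number of CpG dinucleotides did not order these 4 genes by the presence of a peak. The Cebpb window held 50 CpG and the Cebpa window 29, and neither was overlapped by a peak. The Cebpg window held 38 and the outer Gfi1 window 16, and both were overlapped. Gfi1 has a second, inner start (chr5:107724294-107724593), whose window held 10 CpG and was also overlapped. Both Gfi1 windows lay under the peak over their whole 300 bases, whereas the peak at Cebpg reached only 53 bases into the window, from its transcribed end to just past the start. Over all 21263 windows of protein-coding genes, 25.7% were overlapped by a peak. That share was 4.54% for windows with 0 to 4 CpG, 43.9% for windows with 35 to 39 and 39.4% for windows with 40 or more. Of the 234 windows with at least as many CpG as Cebpb, 29.5% were overlapped, and of the 3649 with at least as many as Cebpa, 42.3% were.

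**Figure D2:**
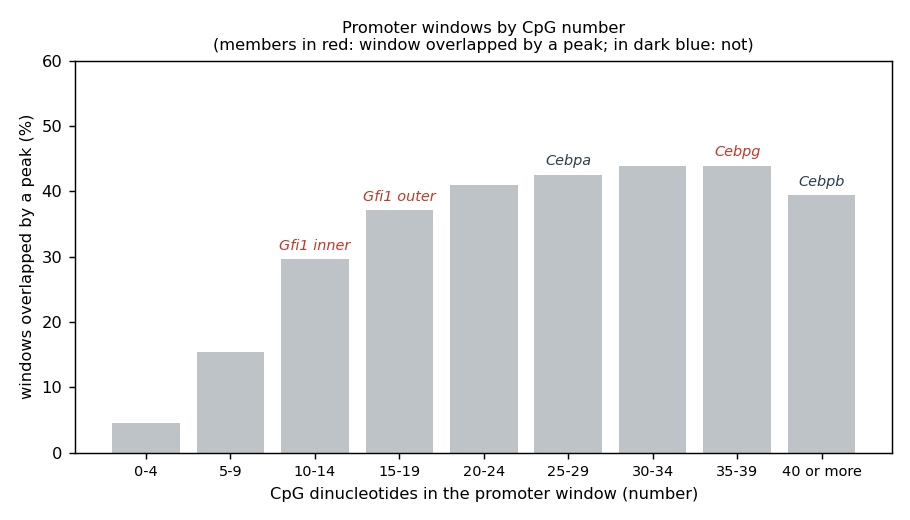
Share of promoter windows overlapped by an H3K27ac peak (vertical axis, percent) against the number of CpG dinucleotides in the window (horizontal axis, bins), over 21263 windows of protein-coding genes. Names mark the bin of each C/EBP or Gfi1 window, in red where a peak overlapped it and in dark blue where none did; the windows of Cebpa and Cebpb stand in bins with shares of 42.6% and 39.4%.

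Short motifs were searched on both strands of these windows. CCAAT, the CCAAT box, was present in 38.2% of all windows, and the Cebpg window held 2 copies on the opposite strand, beginning 89 and 28 bases before the start. TATAAA, the TATA box, was present in 12.6% of all windows. In Cebpa it began 30 bases before the start, and in Cebpb it began 21 bases after the annotated start. GGGCGG, the GC box, was present in 46.2% of all windows, with 5 copies in Cebpb, of which the first 2 overlap, and 1 in Cebpg. TTGCG, a part of the C/EBP palindrome, was present in 20.9% of all windows and once in Cebpa, 185 bases before the start. AATCNNNGC, a Gfi1-type motif, was present in 10.7% of all windows and in none of the 5 windows of these genes. None of the 5 motifs was present in either Gfi1 window. These matches are descriptions of the letters in the windows.

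Cebpz carried the strongest peak of the group. The peak, chr17:78936169-78937357, had a signal value of 10.2 and a −log10 q of 36.4. The signal value was read as fold over background, the usual content of this column, which the labels do not state. Its summit lay 196 bp inside the high end of the gene, and it also overlapped the end window of the neighbour Ndufaf7, which encodes a mitochondrial complex I assembly factor. Of the 7929 genes with an end peak, 5.37% had one at least as strong. The median of the strongest end peak over those genes was 4.71, with quartiles of 3.52 and 6.55.

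At Cebpg the peak, chr7:35055059-35056569, had a signal value of 5.14 and a −log10 q of 9.80. Its summit lay 825 bp downstream of the start, inside the gene. It also overlapped the end window of the predicted protein-coding gene Gm45095, whose end was nearer, 0.258 kb from the summit. Of the genes with an end peak, 42.8% had one at least as strong. The peak thus lay in the middle of the range and cannot be assigned to 1 of the 2 genes.

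Gfi1 had peaks in the 1 kb windows of both ends, with lower signal values than that of Cebpz. The wider one, chr5:107722874-107726949, was 4076 bp wide, against a median of 854 bp in the list, and had a signal value of 4.25 and a −log10 q of 6.27. It covered both annotated starts, and its summit lay 2.70 kb downstream of the outer start. The other, chr5:107716840-107718760, had a signal value of 3.76 and a −log10 q of 5.02, and lay wholly inside the gene, with its summit 1255 bp from the low end, where the gene finishes. Of the genes with an end peak, 58.8% had one at least as strong as 4.25. By summit within 1 kb in place of overlap, neither Gfi1 peak was at an end, and 33.3% of all protein-coding genes had an end peak.

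All 7 genes had a distal peak within 100 kb, as had 72.1% of all protein-coding genes, and 23.1% of all protein-coding genes had no peak at an end, in the body or within 100 kb, against 0 of the 7. A distal peak had its summit outside the gene within 100 kb of its nearer end and did not overlap its end windows. The number of distal peaks was 10 at Cebpb, 3 each at Cebpe and Gfi1, 2 each at Cebpd and Cebpz, and 1 each at Cebpa and Cebpg. The median over the 7 genes was 2, and so was that over all protein-coding genes, with quartiles of 0 and 5. At least as many distal peaks as Cebpb had were found at 4.93% of all protein-coding genes. Some of the 10 lay within 1 kb of each other. With peaks within 1 kb merged first, the 7 genes had 18 distal peaks in place of 22. The share over all protein-coding genes is not given for merged peaks. The count at Cebpb was 5 with a −log10 q of 5 or more, 5 with signal values from 4 upwards and 3 within 50 kb. For these counts the share over all protein-coding genes is not given, and the 4.93% does not apply to them. Cebpg had no distal peak under any of these 3 settings, and Cebpa had none within 50 kb. The 22 distal peaks were all different, and with the 4 peaks at ends they made 25 distinct peaks, because the peak at the end of Cebpg is also the distal peak of Cebpa. Their −log10 q ran from 1.46 to 36.4.

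**Figure D3:**
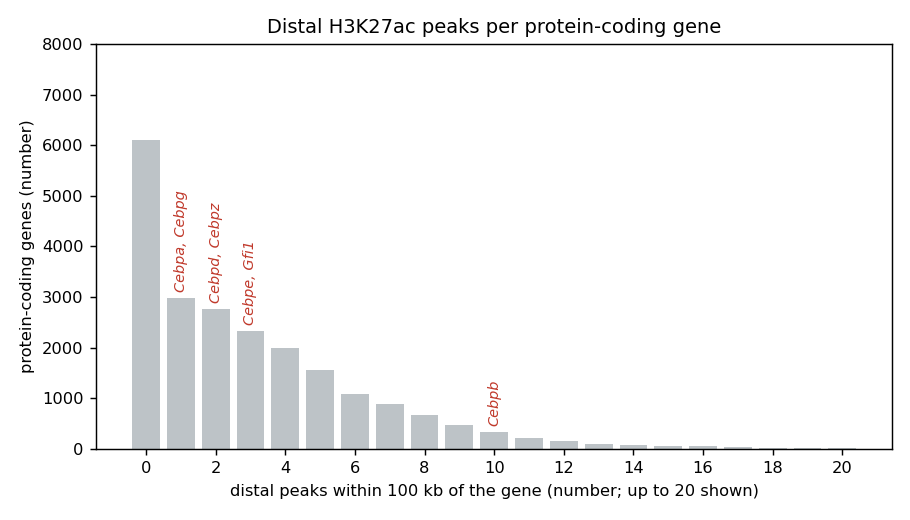
Number of distal H3K27ac peaks within 100 kb (horizontal axis) over all protein-coding genes (vertical axis, number of genes), with genes above 20 peaks not drawn. Names stand above the bar of each C/EBP gene and of Gfi1; 6 genes lie at 1 to 3 peaks and Cebpb at 10.

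Of the 22 distal peaks, 10 overlapped the end window of another protein-coding gene, or 45.5%. Over all pairs of a distal peak and a protein-coding gene the share was 54.8%. A further 4 overlapped only the end of a non-coding gene, and the rest overlapped no annotated end. Which gene a distal peak acts on was not measured.

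Around Cebpa, the single peak within 100 kb was the one at Cebpg, 63.6 kb upstream of the Cebpa start. No peak lay on the downstream side until chr7:35234415-35235206, 113 kb beyond the gene, just outside the 100 kb limit, with a signal value of 4.96. An enhancer of mouse Cebpa is known 37 kb downstream of its start. The nearest peak edge lay 78.1 kb from that position. The peak-free span around Cebpa was 178 kb, and 68.5% of the 11786 genes that lacked a peak at an end or in the body and had peaks on both sides had a span at least as wide, with a median of 361 kb. The span around Cebpa was thus shorter than that of most such genes.

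Cebpb had the most distal peaks and the closest one among the 4 genes without a peak at an end. The closest, chr2:167698073-167698771, lay 9.46 kb downstream of the Cebpb start with a signal value of 4.30 and a −log10 q of 9.66, next to an end of the non-coding gene A530013C23Rik. The strongest, chr2:167776464-167779762, lay 88.8 kb downstream with a signal value of 8.10 and overlapped the ends of the predicted genes Gm14321 and Gm32287. With 2 weaker peaks beside it, of 2.87 and 2.58, it formed a group for which Cebpb was the nearest protein-coding gene. On the upstream side, 3 peaks overlapped the ends of Ube2v1, which encodes a ubiquitin-conjugating enzyme variant, or of Tmem189. The strongest of these had a signal value of 6.15. Between them, 1 peak of 4.90 lay inside Tmem189 and 1 of 2.90 overlapped no annotated end. The outermost, at 99.6 kb upstream with a signal value of 6.81, was just inside the 100 kb limit, and the next peak on the downstream side lay just outside it at 115 kb, with a signal value of 3.21. The peak-free span around Cebpb was 36.7 kb, and 96.5% of the 11786 genes that lacked end and body peaks had one at least as wide.

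Cebpd and Cebpe had distal peaks on the low side only. At Cebpd, the nearer peak, chr16:15862196-15863987, had a signal value of 5.17 and lay at the end of Mzt2, a gene for a mitotic spindle protein, 24.5 kb from Cebpd. The other, with a signal value of 4.32, lay 80.1 kb away inside Prkdc, which encodes the catalytic subunit of the DNA-dependent protein kinase. On the high side the next peak was 413 kb away, and the peak-free span of 438 kb was exceeded or equalled by 46.2% of the 11786 genes that lacked end and body peaks. At Cebpe all 3 peaks lay at ends of other genes. Those at chr14:54685536-54686725 and chr14:54686896-54688273, with signal values of 5.14 and 5.17, overlapped ends of Acin1, which encodes a nuclear protein of apoptosis and splicing, and of 1700123O20Rik. The farthest, with a signal value of 4.16, lay 92.8 kb away at Psmb5, a proteasome subunit gene.

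The distal peaks of Cebpg and Cebpz were few. The single distal peak of Cebpg, chr7:34984021-34986556, lay inside Pepd, 71.6 kb downstream of the Cebpg start, with a signal value of 3.32. Those of Cebpz lay at the ends of Eif2ak2, which encodes the double-stranded RNA-activated kinase PKR, and of Prkd3, a protein kinase gene, with signal values of 2.78 and 4.01. The first lay below the median of the list, 3.27.

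Gfi1 had 2 distal peaks close upstream of its start, and neither overlapped a protein-coding gene end. The nearer, chr5:107737958-107740550, lay 12.9 kb upstream of the outer start with a signal value of 4.02 and a −log10 q of 6.27, and overlapped an end of the non-coding gene Gm42147. The next, chr5:107748879-107750532, lay 23.6 kb upstream, inside Evi5, with a signal value of 3.33. An enhancer of mouse Gfi1 is known 35 kb upstream. No peak lay within 2 kb of that position, and the nearest peak edge was 10.3 kb away, at the Evi5 peak just named. The third distal peak lay 99.4 kb beyond the low end, inside Rpap2, with a signal value of 3.36.

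Genes that act with these factors were read by the same rule. Among 15 partners and regulators of C/EBP proteins, 14 had a peak at an end, where the share over all protein-coding genes was 36.2%. The strongest were at Trib1, the pseudokinase adaptor that targets C/EBP alpha for degradation (16.1), at Atf4, a leucine zipper factor that pairs with C/EBP proteins (12.6), and at Runx1, a transcription factor acting upstream of Cebpa (10.1). Ddit3, the C/EBP family member also called CHOP, had a signal value of 8.72. E2f1 was the 1 gene of the list without a peak at an end and had 4 distal peaks, and that of Trib3 was weak, at 2.03 with a −log10 q of 0.364. The median number of distal peaks per gene was 4.

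Of 10 cofactors and relatives of Gfi1, 7 had a peak at an end, against 36.2% of all protein-coding genes. The strongest were at Rcor1, which encodes the corepressor CoREST (7.77), Kdm1a, which encodes LSD1 (6.15), and Hdac2, a histone deacetylase gene (4.28). Gfi1b, the close relative of Gfi1, had none at an end and 6 distal peaks, and Zbtb17 and Ajuba had none at an end. Counting only signal values from 4 upwards, 4 of the 10 genes had a peak at an end, against 23.2% of all protein-coding genes.

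Of 15 myeloid genes known as C/EBP targets, 1 had a peak at an end, against 36.2% of all protein-coding genes. It was Csf2ra, a subunit of the GM-CSF receptor, with a signal value of 9.12. The other 14 included the neutrophil granule genes Mpo, Elane, Ltf and Camp. Distal peaks lay within 100 kb of 14 of the 15, with a median of 3 per gene, where 72.1% of all protein-coding genes had one and the median was 2. Of 11 genes reported as repressed by Gfi1, 5 had a peak at an end, or 45.5%, near the 36.2% over all protein-coding genes. By summit the number was 3 of 11, where the share over all protein-coding genes was 33.3%. Among them were Meis1 (12.2) and Hoxa9 (7.44), homeobox genes of stem and progenitor cells. The shares of these lists are descriptions, and no difference between them was tested.

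**Figure D4:**
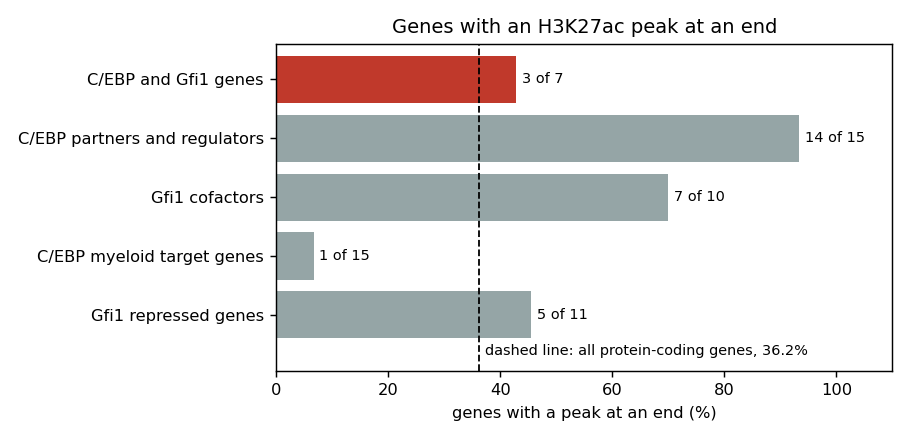
Share of genes with an H3K27ac peak at an end (horizontal axis, percent) for the C/EBP and Gfi1 genes and the 4 lists of partners and targets, with the number of genes beside each bar. The dashed line is the share over all protein-coding genes, 36.2%; the partners of C/EBP proteins stand above it with 14 of 15 genes and the myeloid targets below it with 1 of 15.

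Marker genes of stem and progenitor cells, of leukocytes and of mature lineages were read in the same way. Of the stem and progenitor markers, only Kit and Sca1 were used in the sort. Peaks at an end were present at 4 of 6 stem and progenitor markers, Kit, Flt3, Slamf1 and Cd48, against 36.2% of all protein-coding genes. The leukocyte gene Ptprc also had one. The end peaks of Slamf1 and Cd48 were weak, with a −log10 q of 2.68 and 0.799. Of the 6 stem and progenitor markers, only Kit and Flt3 had one with a −log10 q of 5 or more, against 24.0% of all protein-coding genes. Ly6a, which encodes Sca1, and Cd34 had none at an end, with 18 and 3 distal peaks within 100 kb. None of the 6 markers of mature lineages, such as Itgam and Cd3e, had a peak at an end, where the share over all protein-coding genes was 36.2%.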

How the data were processed

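The data were 1 peak list for 4 H3K27ac libraries over 1 input library. BWA, MACS2 and the build mm10 are named, without role or version, in the submitters' processing notes. The deposited list has no header and is labelled as overlap optimal peaks. It was not limited to a q-value of 0.05, since it holds the Trib3 peak with a −log10 q of 0.364. The authors' columns were read in the narrowPeak layout: a score per peak (not used for results), the signal value, read as a ratio over background although the labels do not state this, the deposited −log10 p and −log10 q. Read totals are not given in the sources used here, so the depth is unknown. Positions are 1-based.

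Gene spans came from the RefSeq table of GRCm38.p6, the reference assembly that mm10 represents. Strand was known only for genes with a promoter sequence; for the others, ends are named low and high by coordinate. Overlaps were computed with Python 3.11.15, pandas 2.3.3 and numpy 2.4.6. They were checked on planted peaks centred on gene ends or lying inside the 100 kb limit. Peaks at the edges of the 1 kb and 100 kb limits and overlaps with gene bodies were not checked in this way. The named genes were all 7 members, and of the 4 lists those with the 3 strongest peaks or, where few, those without; Ddit3, Trib3, Mpo, Elane, Ltf, Camp, Itgam and Cd3e were named after their values were seen. A member of one list is not reported here by name. The members and lists were chosen with earlier results of these data known. Alternatives were stricter peak thresholds, other windows and distances, summits in place of overlaps, and merged peaks.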

Additional observations from a re-analysis of the deposited data

How the results depend on the processing

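Of 46 alternative values, 38 stayed within 1.5 times the value reported and 31 were identical. Some of these could not differ. Every peak counted for the 7 members had a −log10 q of at least 1.46, so a q-value limit of 0.05 removed none of them. A distance of 200 kb could not raise the 0 members without a peak. The number of members with a peak at an end stayed at 3 except by summit, where it was 2, without Gfi1. The number of distal peaks, 22, became 13 with a −log10 q of 5 or more, 13 with signal values from 4 upwards, 9 within 50 kb and 36 within 200 kb, since each setting keeps fewer or more peaks. With peaks within 1 kb merged first, the number was 18. Within 50 kb, 1 of the 7 members, Cebpa, had no peak at all, against 31.4% of all protein-coding genes. The Gfi1 cofactors with a peak at an end fell from 7 to 4 of 10 with a −log10 q of 5 or more (24.0% of all protein-coding genes) and to 4 with signal values from 4 upwards (23.2%), and the Gfi1 repressed genes from 5 to 3 by summit. No peak lay within 2 kb of either enhancer position, and none within 5 kb. The stricter peak thresholds only remove peaks, so they could not change this result. No paired analysis was possible because values of single libraries were not part of the data, and for the same reason no library could be left out. How many weak peaks a deeper library would add is unknown.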
